A study of Mus musculus with 18 samples.

Results

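Expression of 8 genes was followed across sorted colon cells and whole colon crypts of mice with and without the olfactory receptor gene Olfr78: Ckb, Prlr, Slco2a1, Hopx, Adgrf5, Gnaz, Gk and Lgals12. They are 8 of the 52636 gene IDs listed in the data, and were picked because their levels differed in the same direction between each sorted knockout (KO) pool and each sorted heterozygous (HE) pool. They were thus chosen by the values of that contrast, which are given as a description with no test. RNA of sorted cells was read in 6 libraries. Epcam+ve/GFP+ve cells, epithelial cells that carry the reporter, came from HE Olfr78-GFP mice (n = 2 pools) and from KO mice homozygous for the same allele (n = 2 pools), with 2 mice in each pool, and Epcam+ve/GFP-ve cells came from 1 WT mouse (n = 2 samples). The sorted mice were between 4 and 7 months old. Whole crypts came from 1 mouse per library, with 2 WT mice and 5 KO mice from the Olfr78-GFP line and, from a second line, 3 control and 2 eKO mice. The Olfr78-GFP mice were of a B6;129P2 strain and those of the other line of a B6, 129 background. The Olfr78-GFP allele puts a GFP-IRES-tauLacZ cassette in the place of the coding exon, so that GFP is made from the Olfr78 locus in HE and KO cells alike and every cell of a KO mouse lacks the receptor. In the second line, Vil1Cre/+-Olfr78fx, the coding exon is floxed and Cre is driven by the Villin promoter, so that eKO mice lose it in the epithelium alone. The genotype label of its second control and of its second eKO mouse was the same (WT/HO). In its qRT-PCR of this line the study used Vil1+/+-Olfr78fx/fx and Vil1Cre/+-Olfr78+/+ mice as controls.

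Enteroendocrine cells are scattered hormone-producing cells of the gut lining, and enterochromaffin cells are the serotonin-making ones among them. The 8 genes belong to no common pathway. Ckb, brain-type creatine kinase, and Gk, glycerol kinase, are metabolic enzymes that move phosphate onto creatine and glycerol. Prlr, the prolactin receptor, Adgrf5, an adhesion G-protein-coupled receptor, and Gnaz, the G alpha z subunit that inhibits adenylyl cyclase, take part in signalling. Slco2a1 carries prostaglandins across the cell membrane, Hopx is a homeodomain protein without DNA binding that marks reserve stem cells and differentiating cells, and Lgals12 encodes galectin-12, a lectin that binds galactosides.

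The 8 genes lie on 8 different chromosomes, here in the GRCm38 build with GENCODE annotation. Ckb is at chr12:111669361-111672338 on the minus strand, Prlr at chr15:10177238-10349180 on the plus strand, Slco2a1 at chr9:102988712-103096002 on the plus strand and Hopx at chr5:77086988-77115121 on the minus strand. Adgrf5 is at chr17:43360451-43459557 and Gnaz at chr10:74967177-75016907, both on the plus strand, whereas Gk at chrX:85701937-85776819 and Lgals12 at chr19:7596660-7607193 are on the minus strand. All are protein coding.

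Promoter sequence from RefSeq (GRCm38.p6) was at hand for 6 of the 8 genes, in 10 windows of 250 bases that end just before a transcription start. Gnaz and Lgals12 had no entry. A TATA box (TATAAA, searched on both strands like every motif here) was found in 2 of the 10 windows, those of Ckb and Slco2a1, and 12.4% of 32851 windows of the same length hold it. Of the other genes with windows, Prlr, Hopx and Adgrf5, which like these were lower in KO pools, had no TATA box. Slco2a1 held 1 GC box (GGGCGG, a motif that 32.7% of all windows hold). Gk, which was higher in KO pools, had 3 GC boxes and no TATA box. These 3 windows are shown 5′ to 3′ because they set 2 genes that were lower in KO pools beside 1 that was higher, with the TATA boxes and the GC boxes in capitals (CCGCCC where the GC box lies on the opposite strand). They span chr12:111672339-111672588 on the minus strand for Ckb, chr9:103008237-103008486 on the plus strand for Slco2a1 and chrX:85776820-85777069 on the minus strand for Gk. The window of Slco2a1 lies inside the GENCODE span of the gene, before an internal start.
Ckb: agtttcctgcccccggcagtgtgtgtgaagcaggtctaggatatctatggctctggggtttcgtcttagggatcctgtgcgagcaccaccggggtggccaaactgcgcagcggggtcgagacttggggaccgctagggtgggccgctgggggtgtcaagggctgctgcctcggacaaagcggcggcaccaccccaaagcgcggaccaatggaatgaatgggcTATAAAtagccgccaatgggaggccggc
Slco2a1: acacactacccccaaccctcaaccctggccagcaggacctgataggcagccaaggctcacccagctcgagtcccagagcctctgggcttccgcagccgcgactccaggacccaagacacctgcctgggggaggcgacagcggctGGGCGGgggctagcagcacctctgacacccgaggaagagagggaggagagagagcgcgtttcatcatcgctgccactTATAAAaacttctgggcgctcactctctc
Gk: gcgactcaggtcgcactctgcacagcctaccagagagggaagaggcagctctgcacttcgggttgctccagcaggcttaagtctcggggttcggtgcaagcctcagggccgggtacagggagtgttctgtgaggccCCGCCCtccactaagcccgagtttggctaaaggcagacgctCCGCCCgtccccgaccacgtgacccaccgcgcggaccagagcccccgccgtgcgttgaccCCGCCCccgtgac
The E-box CAGATG (14.4% of all windows), the short cAMP response site TGACG (17.8%, contained in the full element) and the forkhead site TGTTTAC (3.17%) were each found in 1 window, that of an internal start of Prlr at chr15:10223656-10223905 on the plus strand. The full cAMP response element TGACGTCA, which 1.55% of all windows hold, was in none of the 10. These matches describe letters in the windows and say nothing of binding.

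Levels are given as CP20M, the reads of a gene scaled to 20000000 per library. Between 532702 and 2237474 reads fell on genes in the sorted libraries and between 6175301 and 10995300 in the crypt libraries. KO pool 1 was the shallowest, and 1 read was worth 37.5 CP20M there against 8.94 to 13.3 in the other sorted libraries. Olfr78 itself, the targeted gene, was at 4822 and 4401 CP20M in HE pools, 977 and 837 in KO pools and 135 and 21 in Epcam+ve libraries. The values do not show which exons the reads in KO pools came from. In crypts Olfr78 was at 88 and 111 CP20M in WT, between 7 and 42 in KO, and at 105, 61 and 124 in control mice, against 21 and 73 in the libraries labelled eKO mouse 1 and eKO mouse 2, so that eKO mouse 2 lay within the range of its controls. In the crypts of the Olfr78-GFP line the fall of Olfr78 passed the threshold (log2 fold change -1.71 ± 0.38 SE, adjusted p = 0.0199), and in the second line it did not (-1.02 ± 0.49, adjusted p = 1.00). Of the sorted libraries, the Epcam+ve samples were labelled enteroendocrine, but their summed level of 5 enteroendocrine markers (Chga, Chgb, Syp, Neurod1 and Insm1) was 11469 and 11199 CP20M, where crypts held between 4788 and 11950 and the 4 GFP+ve pools between 305548 and 957867. They are treated here as general epithelium.

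Ckb, Prlr, Slco2a1, Hopx, Adgrf5 and Gnaz had their highest sorted levels in HE pools and were lower in KO pools, and Gk and Lgals12 showed the opposite. In bulk RNA of this kind, fewer cells of a type and less RNA per cell cannot be told apart. HE pools held 2486 and 2507 CP20M of Ckb and KO pools 789 and 826, a ratio of means of 3.09. With 340 and 278 CP20M the sorted WT epithelium was lower still, so that the KO pools lay in between. For Hopx the HE pools reached 1796 and 2334 CP20M, the KO pools 676 and 733 and the sorted WT epithelium 582 and 566. KO pools were thus close to the general epithelium for this gene. Slco2a1 stood at 2566 and 3094 CP20M in HE, 1127 and 802 in KO and 742 and 771 in Epcam+ve libraries. Prlr was at 3763 and 3694 CP20M in HE against 1352 and 1383 in KO pools, the latter within the range of the Epcam+ve libraries (1618 and 1264). The HE mean was 2.93 times the KO mean for both Hopx and Slco2a1, and 2.73 times for Prlr.

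Adgrf5 and Gnaz, the receptor and the G alpha subunit, were close to absent from sorted WT epithelium. HE pools held 2497 and 2627 CP20M of Adgrf5, KO pools 939 and 605, and Epcam+ve libraries 63 and 21. Its HE mean was 3.32 times the KO mean, and the KO mean was still 18.4 times that of the Epcam+ve libraries, which held 9 reads in all. For Gnaz the HE pools reached 771 and 881 CP20M, the KO pools 76 and 221 and the Epcam+ve libraries 18 and 0. The groups were far apart, yet KO pool 1 held only 2 reads of Gnaz, with an exact Poisson 95% interval of 9.09 to 271 CP20M, and KO pool 2 held 19 reads (133 to 345 CP20M). Intervals of this kind cover counting error only. With reads summed over the pools, Gnaz was 85.9 times higher in HE pools than in the Epcam+ve libraries (23.3 to 717, exact 95% interval), which held 2 reads, and 19.5 times higher in KO pools than in them (4.76 to 171). These intervals also leave out the spread between pools. The choice of the genes used the HE and KO pools, so they are a description.

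Gk and Lgals12 were low in HE and high in KO pools. HE pools held 104 and 41 CP20M of Gk, which is 12 reads together, against 864 and 884 in KO pools and 367 and 340 in Epcam+ve libraries. The ratio of the KO to the HE mean was 12.1. KO pools thus exceeded both other sorted groups, lying 2.47 times above the sorted WT epithelium. For Lgals12 the HE pools stood at 116 and 81 CP20M, the KO pools at 451 and 593 and the Epcam+ve libraries at 635 and 668, and the KO mean was 5.30 times the HE mean. Here both KO values lay below both Epcam+ve values, but KO pool 1 held only 12 reads. The Poisson 95% intervals of KO pools 1 and 2 (233 to 787 and 441 to 779 CP20M) include both Epcam+ve values. Whether KO pools differ from the general epithelium for Lgals12 is thus not settled by these reads. Gk lies on the X chromosome, and all 4 GFP+ve pools held Y-linked RNA, with Eif2s3y at 1014 to 1387 CP20M and Xist, made from the inactive X, at 0 to 107. These sex-linked genes were looked up after the values of Gk had been seen.

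**Figure D1:**
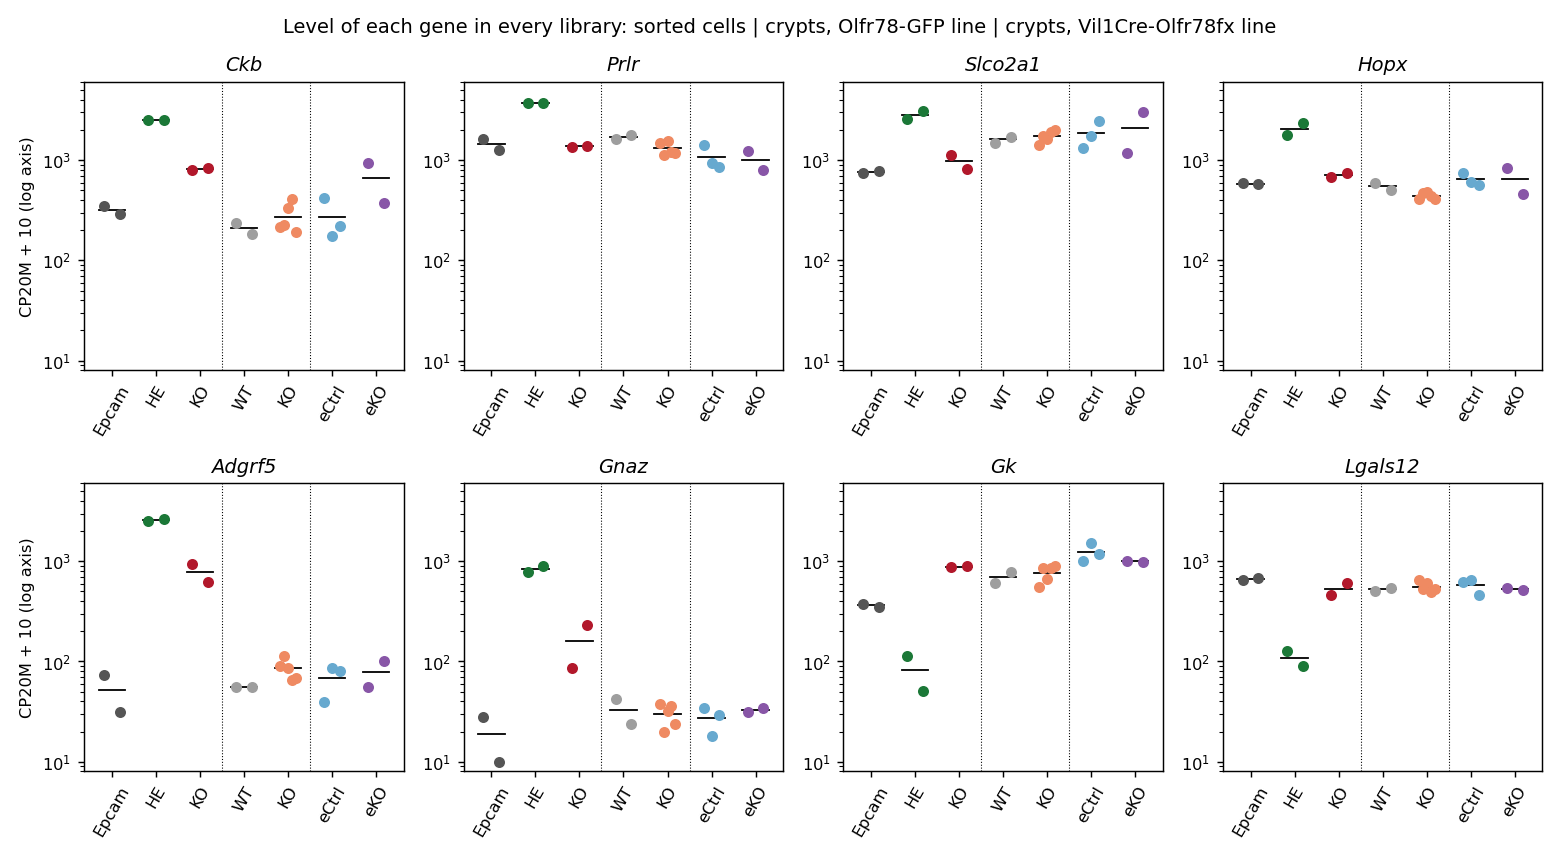
Level of the 8 genes in each of the 18 libraries, as CP20M + 10 on a log axis (each point 1 library, each bar the mean of a group), with dotted lines between sorted cells, crypts of the Olfr78-GFP line and crypts of the Vil1Cre/+-Olfr78fx line. Ckb, Prlr, Slco2a1, Hopx, Adgrf5 and Gnaz have their highest group mean in HE pools, Gk and Lgals12 their lowest, and WT and KO crypts differ less, as for Ckb with 175 to 396 CP20M in the Olfr78-GFP line.

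The criterion of the study's methods for KO against HE pools asks for over 40 CP20M in all 4 pools, means that differ by more than 2 times the average SD, and a 1.5-fold ratio of the means. It was met by 1571 of 11892 genes, which is 13.2%, with 384 higher (3.23%) and 1187 lower (9.98%) in KO pools. All 8 genes were within it, 2 higher and 6 lower, as their choice on this contrast fixes, and all 8 were without overlap between the pools, as were 35% of all genes. With the pools rescaled by median of ratios, 655 genes were higher and 633 lower, because that moves the median log2 ratio over all genes from -0.15 to 0.013. Each of the 8 kept its direction under it, which their choice on this contrast makes likely. Among the 11892 genes, Gnaz had the 4th lowest and Gk the 4th highest ratio, whereas Prlr was 104th from the lowest and Lgals12 11th from the highest.

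Compared with sorted WT epithelium, the HE pools differed in their mean by at least 2-fold, without overlap, at 33.1% of 16355 genes, 16.5% in each direction, and all 8 genes were among them, 6 higher and 2 lower. For KO pools the same rule was met by 27.3% of 15779 genes (10.8% higher, 16.5% lower) and by 4 of the 8, Ckb (2.61-fold), Adgrf5 (18.4-fold), Gnaz and Gk (2.47-fold), all higher. The ranges of KO pools and Epcam+ve samples did not overlap for 7 of the 8, all but Prlr, and for 54.9% of all genes. Both comparisons share the Epcam+ve samples of 1 mouse, and the choice of the genes used the HE and KO pools. A gene chosen for a high or low HE level tends to differ from the Epcam+ve samples too. Nothing is therefore read from the counts among the 8. On the log2(CP20M + 10) scale, the difference between HE and Epcam+ve means was 2.98 for Ckb, 1.38 for Prlr, 1.88 for Slco2a1, 1.82 for Hopx, 5.76 for Adgrf5 and 5.64 for Gnaz, and -2.25 for Gk and -2.63 for Lgals12. The KO pools differed from the Epcam+ve mean by 1.36 for Ckb, -0.064 for Prlr, 0.33 for Slco2a1, 0.29 for Hopx, 4.01 for Adgrf5, 3.07 for Gnaz, 1.28 for Gk and -0.33 for Lgals12.

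On that scale the KO pools lay nearer to sorted WT epithelium than the HE pools did for every one of the 8, but in plain CP20M Gk lay further from it in KO pools. The share of the HE to Epcam+ve log2 difference that was absent in KO pools was 30.4% for Adgrf5, 45.5% for Gnaz and 54.2% for Ckb, and it was 82.7% for Slco2a1, 84.0% for Hopx, 87.6% for Lgals12 and 105% for Prlr. It was 157% for Gk, whose level passed that of the Epcam+ve samples. The same shares in plain CP20M were 71.0% for Adgrf5, 82.9% for Gnaz, 77.2% for Ckb, 91.2% for Hopx, just below that for Slco2a1, 76.6% for Lgals12, 103% for Prlr and 285% for Gk, so that the genes highest in HE pools stood closer together than on the log2 scale. For comparison, among genes above 40 CP20M in all 6 sorted libraries the median log2 share was 31.9% over the 1275 that were higher in HE pools than in Epcam+ve samples (5th to 95th percentile -5.88% to 85.1%), and 22.6% over the 1444 that were lower (-37.1% to 83.8%). Adgrf5 and Gnaz were outside this set because of their low Epcam+ve values. The rule used the KO and HE pools, so these shares are a description.

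**Figure D2:**
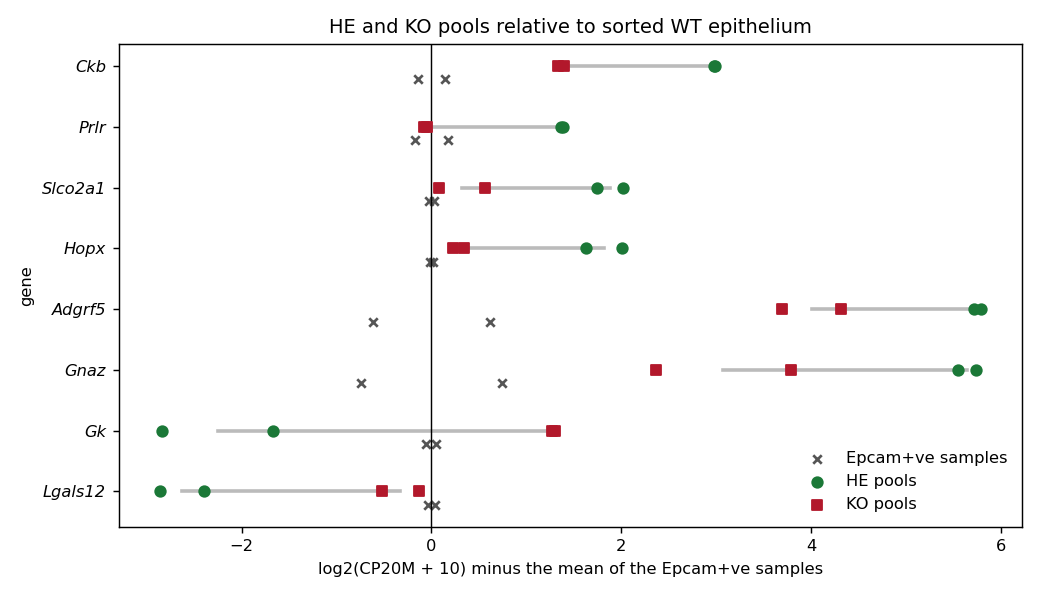
Level of the 8 genes in each sorted library as log2(CP20M + 10) minus the mean of the 2 Epcam+ve samples, with HE pools as circles, KO pools as squares, Epcam+ve samples as crosses and a grey bar from the HE mean to the KO mean. The KO pools lie at -0.064 for Prlr, where the HE pools lie at 1.38, and Gk moves from -2.25 to 1.28 across the level of the Epcam+ve samples.

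Levels of cell type markers also differed between the pools. The summed level of the 5 enteroendocrine markers was 728276 and 957867 CP20M in HE pools and 509216 and 305548 in KO pools, a ratio of means of 2.07, with no marker at 0 in any pool. Chgb made up 468364 and 630029 in HE and 322506 and 191903 in KO pools, and Chga most of the rest. Chga, Chgb and Syp met the criterion as lower in KO pools, whereas Neurod1 and Insm1 did not. Neurod1 was at 12382 and 17016 in HE against 12615 and 4974 in KO pools, and Insm1 at 3406 and 4948 against 5182 and 1058. The 4 enterochromaffin markers, led by the serotonin-synthesis gene Tph1, summed to 138851 and 168953 CP20M in HE pools and to 102986 and 54441 in KO pools. The 5 goblet cell markers summed to 145605 and 66195 CP20M in HE pools, 62176 and 326185 in KO pools and 343021 and 291898 in Epcam+ve libraries. The 5 colonocyte markers summed to 61345 and 46181 CP20M in HE pools and to 19450 and 50351 in KO pools, of which Krt20 alone made up 24878 and 31364 in HE pools.

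Measured per 1000 CP20M of summed enteroendocrine markers, a scaling chosen after seeing the data, 6 of the 8 genes were without overlap between HE and KO pools and 2 were not. As 58.6% of all 11892 genes were without overlap under this scaling, and the choice of the genes used these pools, nothing is read from that count. Ckb was at 3.41 and 2.62 in HE pools and at 1.55 and 2.70 in KO pools, and Prlr was at 5.17 and 3.86 against 2.66 and 4.53, so both overlapped. Hopx was at 2.47 and 2.44 against 1.33 and 2.40, Slco2a1 at 3.52 and 3.23 against 2.21 and 2.62, Adgrf5 at 3.43 and 2.74 against 1.84 and 1.98, and Gnaz at 1.06 and 0.920 against 0.149 and 0.723. The log2 ratios of KO to HE were then between -0.33 for Prlr and -1.18 for Gnaz for the 6 lower genes. Gk (0.143 and 0.0428 against 1.70 and 2.89) and Lgals12 (0.159 and 0.0846 against 0.886 and 1.94) remained higher in KO pools. Since the marker sum, made up mostly of Chgb and Chga, was lower in KO pools, this scaling raises every gene of a pool alike. The part of the marker levels in the differences of the 8 genes was not tested.

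**Figure D3:**
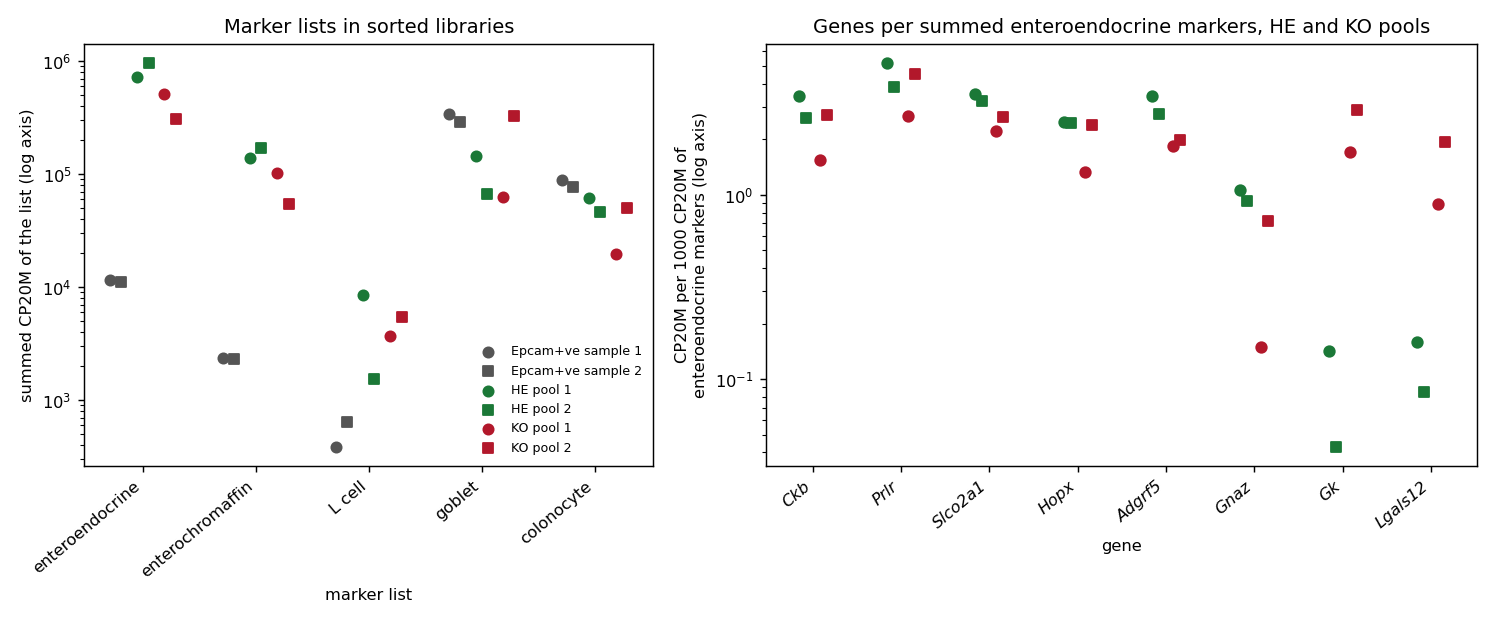
Left, summed CP20M of 5 marker lists in the 6 sorted libraries on a log axis, and right, each of the 8 genes per 1000 CP20M of summed enteroendocrine markers in the HE (green) and KO (red) pools, with circles for sample or pool 1 and squares for 2. Enteroendocrine sums are 728276 and 957867 in HE against 509216 and 305548 in KO pools, and after that scaling the points of Ckb and Prlr overlap while those of Gk and Lgals12 do not.

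Markers of cells outside the epithelium were present at varying levels in the sorted libraries. Of 5 endothelial markers, given here because endothelium is known to express Adgrf5, Cdh5, Plvap and Tie1 were at 0 in all 6 sorted libraries, Kdr was at 0 to 24 CP20M, and Pecam1 was at 1496 and 1734 in HE pools, 1803 and 826 in KO pools and 126 and 340 in the Epcam+ve libraries. The leukocyte list summed to at most 99 CP20M and the fibroblast list to at most 383 CP20M in a sorted library. The 4 smooth muscle markers summed to 528 and 525 CP20M in Epcam+ve libraries, 209 and 321 in HE pools and 38 and 246 in KO pools, mainly Tagln, and the 5 markers of enteric glia and neurons to between 9 and 189. Compared per kilobase of annotated exon, the mean level in HE pools was 1362 CP20M for Hopx, 862 for Ckb, 284 for Adgrf5, 243 for Prlr, 229 for Gnaz and 209 for Slco2a1, and 35.5 for Lgals12 and 9.36 for Gk. In KO pools Hopx (465) and Ckb (279) still led, followed by Lgals12 at 188 and Gk at 113, and Gnaz was lowest at 41.1 CP20M per kilobase.

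Whole crypts gave measurements that the choice of the genes did not use, and none of the 8 passed the threshold for a genotype difference there (limma on log2(CP20M + 10), adjusted p at most 0.2 and a change of more than 1.5-fold). The filter of 40 CP20M in 2 libraries was reached by 7 of them, all but Gnaz. In the crypts of both lines together, 0.0243% of 16447 genes passed, 4 in all (0.00608% higher, 0.0182% lower), and 0 of the 7, of which 1 had an unadjusted p under 0.05, as did 7.7% of all genes. Among the 7, 3 were higher and 4 lower in knockout crypts, with a median log2 fold change of -0.018 beside 0.032 over all genes tested. Ckb was furthest from 0 at 0.75 ± 0.30 (SE, adjusted p = 0.618, and 0.42 without eKO mouse 1), a sign opposite to that in the sorted pools. Crypts hold few GFP+ve cells: their summed enteroendocrine markers were at 4788 to 11950 CP20M against 305548 to 957867 in GFP+ve pools. A difference confined to those cells could go unseen in crypts. In the Olfr78-GFP line the crypt controls were also WT and not HE. The crypts thus cannot decide whether the sorted differences recur.

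In the Olfr78-GFP line alone, 9.48% of 15975 genes passed, 1270 higher (7.95%) and 244 lower (1.53%) in KO crypts, and again 0 of the 7, of which 3 had an unadjusted p under 0.05, as did 25.9% of all genes. Prlr was at 1622 and 1795 CP20M in WT crypts and at 1486, 1128, 1540, 1186 and 1175 in KO crypts, every KO mouse below both WT mice. Its log2 fold change of -0.40 ± 0.13 (SE, adjusted p = 0.0830) met the limit on p but not that on size. Hopx was at 581 and 498 CP20M in WT crypts and at 398, 460, 475, 433 and 397 in KO crypts, also without overlap (-0.31 ± 0.12, adjusted p = 0.138). The order was opposite to that in sorted cells for Adgrf5, with 46 and 46 CP20M in WT crypts and 81, 104, 76, 56 and 59 in KO crypts (0.58 ± 0.25, adjusted p = 0.174). It was just short of the limit on size, and passed both limits with a pseudocount of 1 (0.66, adjusted p = 0.170), with edgeR on recovered reads (0.67, adjusted p = 0.197) and without KO mouse 4 (0.66) or KO mouse 5 (0.65). It passed neither limit with median of ratios (0.52, adjusted p = 0.205) or without KO mouse 2 (0.46, adjusted p = 0.261), and 1 of them with DESeq2 (0.68, adjusted p = 0.301) and with a pseudocount of 40 (0.41, adjusted p = 0.182). Groups without overlap were seen in 3 of the 7 genes, against 31.3% of all genes tested.

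Ckb, Slco2a1, Gk and Lgals12 overlapped between genotypes in this line. Ckb was at 224 and 175 CP20M in WT crypts and at 205, 217, 321, 396 and 182 in KO crypts (log2 fold change 0.34 ± 0.26 SE, 95% interval -0.22 to 0.90). Slco2a1 was at 1492 and 1716 against 1425, 1740, 1635, 1899 and 1983 CP20M (0.11, interval -0.16 to 0.38), and Gk at 600 and 772 against 545, 852, 655, 843 and 890 (0.13, interval -0.27 to 0.52). Lgals12 was at 501 and 535 CP20M in WT crypts and between 481 and 638 in KO crypts (0.077, interval -0.20 to 0.35). Gnaz did not reach the filter in crypts, with 8 to 32 CP20M in any crypt library, 18 reads in all in WT and 39 in KO mice, and a difference was not detectable at this depth.

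In the second line, where Olfr78 is lost in the epithelium alone, 0% of 15401 genes passed with limma and 127 had an unadjusted p under 0.05, while edgeR called 0 and DESeq2 called 6. Ckb was at 407, 165 and 211 CP20M in control crypts and at 933 and 368 in the libraries labelled eKO mouse 1 and 2 (log2 fold change 1.24 ± 0.47 SE, adjusted p = 1.00). The value fell to 0.58 without eKO mouse 1, and was 1.90 without eKO mouse 2, whose Olfr78 level lay among the controls. Gk was at 1004, 1507 and 1176 CP20M in control crypts and at 1002 and 979 in eKO crypts, which do not overlap (-0.29 ± 0.19, adjusted p = 1.00), as was the case for 1 of the 7 genes and for 10.4% of all genes tested. Prlr (1426, 926 and 845 against 1217 and 795 CP20M), Hopx (740, 603 and 561 against 821 and 446), Slco2a1 (1311, 1755 and 2480 against 1181 and 3016), Adgrf5 (29, 77 and 71 against 46 and 91) and Lgals12 (618, 644 and 455 against 529 and 503) overlapped. Without eKO mouse 2 the log2 fold changes were 0.23 for Prlr, 0.38 for Hopx, -0.59 for Slco2a1 and -0.22 for Adgrf5, each opposite in sign to those with it (-0.076, -0.057, 0.079 and 0.21).

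Whether the genotype effect differed between the lines was addressed by an interaction term, which passed an adjusted p of 0.2 at 0.0304% of 16447 genes and at 0 of the 7. Ckb had the smallest adjusted p among them (0.613), with a log2 difference between the lines of 0.90 ± 0.57 SE. The lines stand in separate tables and differ in strain, so that line and table cannot be told apart. Without eKO mouse 2, the eKO group of the term is eKO mouse 1 alone. The log2 differences were then 1.56 for Ckb, -0.70 for Slco2a1 and 0.69 for Hopx. Such a fit assumes that a lone library varies like the other groups, so no call is read from it.

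**Figure D4:**
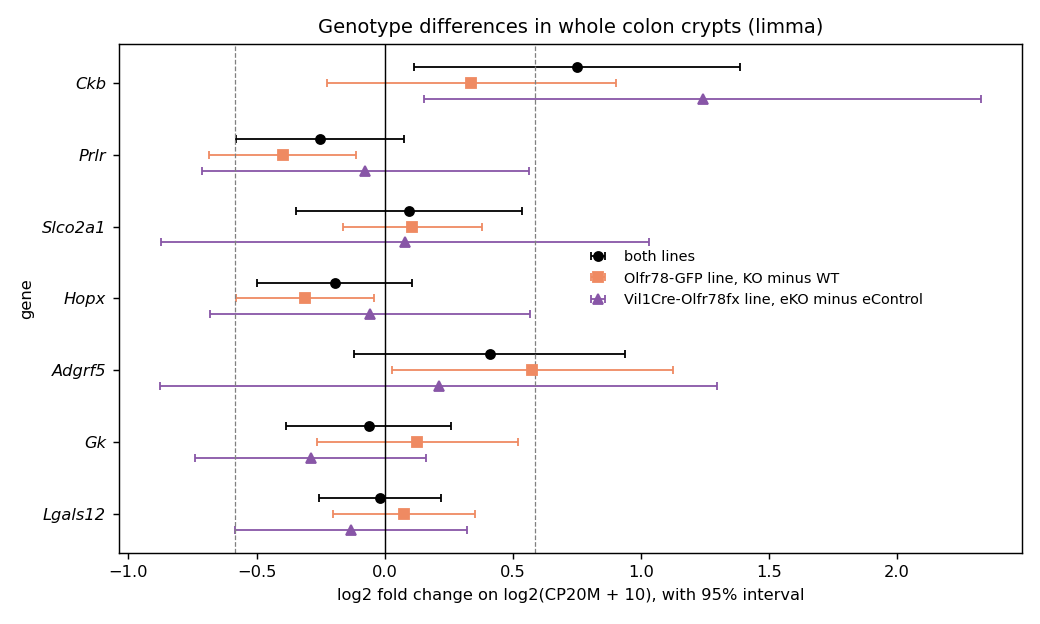
Log2 fold changes of knockout against control crypts with 95% intervals (limma, log2(CP20M + 10)) for the 7 genes that reached the filter, in both lines together (circles), the Olfr78-GFP line (squares) and the Vil1Cre/+-Olfr78fx line (triangles), with dashed lines at a 1.5-fold change in either direction. In the Olfr78-GFP line the interval of Prlr runs from -0.68 to -0.11 and that of Adgrf5 from 0.029 to 1.12, and the intervals of the second line are the widest.

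Sorted Epcam+ve cells were also compared with WT crypts, neither of which served to choose the genes. At an adjusted p under 0.05 and a log2 fold change beyond 1, 9.91% of 15434 genes passed, 716 higher (4.64%) and 814 lower (5.27%) in sorted cells, and 814 and 402 with median-of-ratios rescaling. The median over all genes was -0.26, and -0.07 with that rescaling. Slco2a1 was the only one of the 7 genes to pass, at 742 and 771 CP20M in sorted cells and 1492 and 1716 in crypts (log2 fold change -1.07 ± 0.14 SE, adjusted p = 0.00227). The call rests on the limit on size, since Slco2a1 was at -0.87 with rescaling, -0.84 with edgeR and -0.97 without WT mouse 2. Gk was at 367 and 340 against 600 and 772 CP20M (-0.93 ± 0.20, adjusted p = 0.0129), short of that limit. Ckb (0.61, adjusted p = 0.118), Lgals12 (0.33, adjusted p = 0.191), Hopx (0.092, adjusted p = 0.738), Prlr (-0.25, adjusted p = 0.265) and Adgrf5 (-0.24, adjusted p = 0.776) did not pass. The sorted samples come from 1 mouse and the crypts from 2, so part of the spread behind these p-values may be technical. Sorted cells were also dissociated, sorted and read less deeply than crypts, so that preparation and cell source cannot be told apart here. Of 69 other genes of the same pathways 8 passed, which is 11.6% beside the 9.91% of all genes. Higher in sorted cells were the glycerol channel Aqp3 (2.34 ± 0.55 SE, adjusted p = 0.0183), the prostaglandin synthase Ptgs2 (2.34 ± 0.50, adjusted p = 0.0130) and the galectins Lgals2 (1.44 ± 0.22, adjusted p = 0.00364) and Lgals7 (3.11 ± 0.51, adjusted p = 0.00494). Of these, Aqp3 (54 and 42 CP20M against 0 and 3 in crypts), Ptgs2 (63 and 72 against 8 and 3) and Lgals7 (81 and 72 against 0 and 0) rest on few reads. Lower were the creatine transporter Slc6a8 (-1.28 ± 0.13, adjusted p = 0.000676), Mgll (-1.33 ± 0.20, adjusted p = 0.00341), Gna13 (-1.28 ± 0.13, adjusted p = 0.000702) and the prostaglandin E synthase Ptges2 (-1.15 ± 0.36, adjusted p = 0.0472). Epithelial markers differed too, with 4 of 5 colonocyte markers (Car4, Slc26a3, Aqp8 and Krt20, list median -1.15), all 3 L cell markers (Insl5 at -3.86, Pyy at -1.54 and Gcg at -1.14) and the goblet cell marker Clca1 (-1.02) passing as lower in sorted cells. Of markers outside the epithelium, 3 fibroblast genes (Col1a2, Col3a1 and Dcn) and 3 leukocyte genes (Ptprc, Cd3e and Lyz2) passed as lower in sorted cells, and their part in these differences was not tested.

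Over the 13 libraries of the sorted cells and the Olfr78-GFP crypts, the order of the groups differed between the genes. HE pools came first for Ckb, Prlr, Slco2a1, Hopx, Adgrf5 and Gnaz, apart from every other group. For Ckb, KO pools (808 ± 26 CP20M, SD, n = 2) came next, apart from the Epcam+ve samples (309 ± 44), which overlapped with KO crypts but lay above WT crypts, while KO crypts overlapped with WT crypts. For Slco2a1, KO crypts (1736 ± 221, n = 5) and WT crypts (1604 ± 158, n = 2), which overlapped, came before KO pools (965 ± 230, n = 2) and Epcam+ve samples. Prlr in KO pools (1368 ± 22, n = 2) overlapped with both the Epcam+ve samples and KO crypts. Gk was highest in KO pools, which overlapped with KO crypts (757 ± 150, n = 5), and Lgals12 overlapped between all groups next to each other in the order but for the HE pools at the bottom.

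The genes whose pattern over these 13 libraries was most like that of each of the 8, by Pearson r of log2(CP20M + 10) among 18295 genes, mostly shared the high HE values. They were Bin1 (r = 0.97) and Cyp2u1 (0.97) for Ckb, Reep6 (0.97) and the glycogen phosphorylase Pygl (0.96) for Hopx, and H2-T23 (0.96) and the kinase gene Dyrk1a (0.95) for Slco2a1. For Adgrf5 they were Hdac6, a cytoplasmic deacetylase, and Cacna1a, a voltage-gated calcium channel (0.99 each). Cacna1a was at 7733 and 6241 CP20M in HE pools, 5182 and 2789 in KO pools and 421 and 268 in the Epcam+ve libraries. For Gnaz they were Gldc (0.98), a mitochondrial glycine-cleaving enzyme, and Fam167a (0.97), and for Prlr Gm35409 (0.95) and the ubiquitin ligase gene Nedd4 (0.94). Gk was followed most closely by Sycn (0.97) and Aldh1l1 (0.94), and Lgals12 by Acpp (0.97) and D630039A03Rik (0.96). Sycn was at 323 and 54 CP20M in HE pools and at 1615 and 3684 in KO pools, and Acpp at 12 and 14 against 226 and 640. These correlations describe libraries that share pools and mice, and rest mainly on the HE pools.

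Other genes of the same pathways mostly did not meet the criterion in sorted KO against HE pools. Of 8 other genes of prolactin signalling 5 were above the filter, and 3 met the criterion, all lower in KO pools. They were Jak2, the kinase bound to the receptor, at 1600 and 1867 CP20M in HE and 1014 and 1186 in KO pools, the transcription factor Stat5b, at 564 and 374 against 188 and 279, and the feedback inhibitor Socs2, at 1289 and 2067 against 939 and 744. Ghr, the growth hormone receptor, was at 1439 and 2281 against 1690 and 942 and did not meet it. None of the 3 other creatine genes above the filter met it, where the creatine-synthesis enzyme Gatm was at 541 and 1187 CP20M in HE and 939 and 175 in KO pools, and the mitochondrial creatine kinase Ckmt1 was at 2624 and 1227 CP20M in HE and at 1615 and 7402 in KO pools. Of 8 other prostaglandin genes above the filter 1 met it, the exporter Abcc4, higher in KO pools with 263 and 303 CP20M against 173 and 161, while the prostaglandin E synthase Ptges3 (1922 and 2534 CP20M in HE against 2291 and 1883 in KO pools), the prostaglandin-degrading enzyme Hpgd (1381 and 1041 CP20M in HE against 564 and 1871 in KO pools) and the receptor Ptger1 (1002 and 814 against 789 and 733) did not.

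Of 10 other G alpha subunits above the filter, 1 met the criterion, Gnao1, the G alpha o subunit of neurons and endocrine cells, at 4546 and 4361 CP20M in HE and 3417 and 1465 in KO pools. The stimulatory subunit Gnas was at 7238 and 6375 against 6871 and 6798, and Gna13 at 3119 and 2347 against 1990 and 2487. Rgs17, which speeds the GTP hydrolysis of Gnaz, was at 1750 and 2414 CP20M in HE and 1465 and 1476 in KO pools and did not meet it. Of 6 other adhesion receptors above the filter 0 met it, with Adgrl1 at 1750 and 2601 against 1502 and 988 and Adgrg1 at 1692 and 1574 against 2141 and 1093. Of 6 other genes of glycerol handling above the filter 1 met it, the monoglyceride lipase Mgll, at 1439 and 1254 CP20M in HE and 977 and 674 in KO pools. None of the 4 other galectins above the filter met it, with Lgals4 at 7825 and 5081 against 4130 and 11063 and Lgals3 at 1830 and 1081 against 151 and 3254. Of 5 other genes of crypt base and reserve stem cells above the filter 1 met it, Mex3a, at 219 and 174 CP20M in HE and 76 and 105 in KO pools, while Bmi1 (484 and 801 against 902 and 361) and Lrig1 (2647 and 1387 against 1577 and 2208) did not. These shares stand beside the 13.2% of all genes.

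In crypts of both lines together, 0 genes of these lists passed the threshold. In the Olfr78-GFP line 5 of 71 did, which is 7.04% beside the 9.48% of all genes. They were Lgr5, the receptor that marks crypt base stem cells (log2 fold change -0.76 ± 0.16 SE, adjusted p = 0.0195), Lgals2 (-0.88 ± 0.27, adjusted p = 0.0624) and Socs1 (-0.65 ± 0.30, adjusted p = 0.198), all lower in KO crypts, and Gna14 (0.63 ± 0.14, adjusted p = 0.0191) and the thromboxane synthase Tbxas1 (1.60 ± 0.31, adjusted p = 0.0132), both higher. Lgr5 was at 568 and 614 CP20M in WT crypts and at 376, 334, 401, 254 and 383 in KO crypts. The median log2 fold change of the 7 other genes of crypt base and reserve stem cells was -0.32 there, beside 0.026 over all genes tested, and Hopx was at -0.31. The leukocyte markers Ptprc (-0.66) and Lyz2 (-1.34) and the enteroendocrine marker Chgb (-0.61) also passed as lower in these KO crypts, and the smooth muscle marker Myh11 (1.97) as higher, and their part in these differences was not tested.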

How the data were processed

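The deposited values were made by the authors from bulk RNA-seq: paired-end reads were aligned to GRCm38 with STAR, counted per gene with HTSeq and scaled to 20000000 per library (CP20M). The deposited values of the sorted columns were handled as a signal and those of the crypt columns as a score, since the authors had rounded them to whole numbers. Whole reads were recovered from the step that 1 read makes, which gave whole reads for 99.84% to 99.99% of the values in a library. The 8 genes, the pathway lists and the marker lists were chosen with earlier results of these data known, and genes of a pathway list are named as examples where they passed a threshold, or from the 3 highest in HE pools. For each of the 8, the 2 genes with the highest correlation are named.

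Crypts, and Epcam+ve samples against WT crypts, were compared with limma 3.58.1 (R 4.3.3, trended variance) on log2(CP20M + 10), with a filter of 40 CP20M in 2 libraries and Benjamini-Hochberg adjustment over all genes tested; line was a covariate in the fit of both lines. The fits were tested on simulated data. Alternatives were pseudocounts of 1 and 40, no filter, no trend, no covariate for the line, median-of-ratios and TMM scaling, edgeR 4.0.16 (quasi-likelihood) and DESeq2 1.42.0 on recovered reads, a replicate block and leaving out each library. Sorted pools were described without a test. Motifs were searched in RefSeq promoter windows. Depth, and so precision, was lowest in the sorted libraries.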

Additional observations from a re-analysis of the deposited data

Results flagged for a closer look

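Adgrf5 was lower in both sorted KO pools than in either HE pool. In crypts of the Olfr78-GFP line all 5 KO mice lay above both WT mice (log2 fold change 0.58). This was picked out because every library moved one way in sorted cells and the opposite way in the crypts of that line. The direction in sorted cells is fixed by how the genes were chosen. Groups without overlap were seen for 31.3% of all genes tested in these crypts. Adgrf5 did not pass the threshold there in the main fit, and the WT crypts held 17 and 20 reads of it. The difference between these effects was not tested, and their controls differ, HE in sorted cells and WT in these crypts. In crypts of the second line Adgrf5 overlapped, at 29, 77 and 71 CP20M in control and 46 and 91 in eKO mice.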

How the results depend on the processing

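In the crypts of both lines together the count of called genes was 4 with limma, 9 with edgeR, 38 with DESeq2, 27 with the replicate block and 0 without the trend (1261 at an unadjusted p under 0.05). In the Olfr78-GFP line it was 854 with a pseudocount of 40 against 1514, in the second line 6 with DESeq2 and 13 with the replicate block against 0, and for the difference between lines 3 with a pseudocount of 1, 3 without the filter, 66 with DESeq2 and 50 with the replicate block against 5. For Epcam+ve samples against WT crypts it was 953 with DESeq2 and 0 without the filter (9954 at an unadjusted p under 0.05, limma) against 1530. Leaving out each library in turn gave 0 to 1134 genes in both lines (1134 without eKO mouse 1, 32 without eKO mouse 2), 546 to 1684 in the Olfr78-GFP line (953 without WT mouse 1, 546 without WT mouse 2), 1 to 6 in the second line, 2 to 4296 for the difference between lines (616 without eControl mouse 1), 751 to 2232 for Epcam+ve samples (837 without WT mouse 1, 751 without WT mouse 2) and 3643 to 7667 for sorted KO pools against Epcam+ve samples (7667 without KO pool 2). The sign turned for Slco2a1 with the replicate block in the Olfr78-GFP line (-0.023) and, for the difference between lines, with edgeR (0.062), DESeq2 (0.066) and the replicate block (0.34). It turned for Prlr (0.0027 and 0.0075) and Adgrf5 (0.16 and 0.13) between Epcam+ve samples and WT crypts with edgeR and DESeq2, and for Prlr between KO pools and Epcam+ve samples with median of ratios (0.074) and TMM (0.0058). When each library was left out, the log2 values in both lines ran from -0.13 to 0.33 for Slco2a1, -0.19 to 0.020 for Gk -0.072 to 0.029 for Lgals12 and 0.42 (without eKO mouse 1) to 0.94 for Ckb, and in the Olfr78-GFP line from -0.052 to 0.31 for Gk. In the second line they ran from -0.38 to 0.23 for Prlr, -0.59 to 0.75 for Slco2a1, -0.49 to 0.38 for Hopx and -0.22 to 0.64 for Adgrf5, and for the difference between lines from -0.70 to 0.64 for Slco2a1, -0.18 to 0.69 for Hopx and -0.79 to 0.059 for Adgrf5. Against WT crypts the Epcam+ve samples ran from -0.017 to 0.20 for Hopx and -0.85 to 0.38 for Adgrf5, and KO pools against Epcam+ve samples from -0.24 to 0.11 for Prlr. In sorted KO against HE pools all 8 kept their direction, with Gnaz between -3.44 and -1.90 and Gk between 3.07 and 4.41. Their choice on this contrast fixes the direction when a pool is left out, so nothing is read from it. With the replicate block, Adgrf5 passed in the Olfr78-GFP line (0.86, adjusted p = 0.0779 with limma), and without eKO mouse 1 it passed in both lines together (0.60). Same-numbered samples correlated at 0.061 and -0.10 in the Olfr78-GFP line and 0.59 and 0.36 in the second line, and nothing in the labels says that the numbers pair the mice. The causes were not tested. The count of KO against HE pools without 1 pool was not run, since the criterion needs 2 pools a group, and Gnaz has no ratio without Epcam+ve sample 1, as sample 2 was at 0. The lone sample left in a group was assumed to vary like the other groups. KO pool 1, at 532702 reads, limits what can be said of Gnaz and of other genes with few reads there, such as Lgals12 (12 reads) and Hopx (18 reads).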
